A study of Homo sapiens with 6 samples.

Results

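The guides described here target 14 genes that encode structural maintenance of chromosomes (SMC) proteins or partners of them. They were chosen by name: every guide whose gene symbol begins with Smc, Nsmce, Pds5 or Stag, or is Rad21. That gave 56 of the 1826 gene guides of the library, 4 per gene, and 14 of its 459 genes. By role, 24 guides target the SMC5/6 complex (Smc5, Smc6, Nsmce1, Nsmce2, Nsmce3 and Nsmce4a), 12 the cohesin ring (Smc1a, Smc3 and Rad21), 8 the cohesin regulators Pds5a and Pds5b, 8 the condensin subunits Smc2 and Smc4, and 4 the gene Smchd1. No symbol in the tables used here begins with Stag, so the STAG subunits of cohesin were not analysed here.

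SMC complexes are rings with an ATPase at their head that hold or fold DNA. Cohesin holds sister chromatids together and forms chromatin loops, and the paralogous proteins PDS5A and PDS5B bind it, act in its release from and its protection on chromatin, and also help protect stalled replication forks. The SMC5/6 complex carries a SUMO ligase and acts at stalled forks and in homologous recombination, and condensin compacts mitotic chromosomes. Core subunits of cohesin and condensin are commonly needed for the growth of human cell lines.

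The screen measured how cells with pairs of knockouts in the DNA damage response fared, in the line named eHAP iCas9-cl#6. eHAP cells are a human, fully haploid derivative of HAP1, itself of leukemia origin. The clone used makes Cas9 when given doxycycline, and all groups share a p53 null genotype. Each construct carried 2 guides, and its reads in a PCR of genomic DNA were counted as a measure of how many cells bore it. Each of 3 groups had 2 replicate libraries: day 0, day 14 of standard growth (12 population doublings), and day 15 with X-rays of 0.6 Gy given 24 h after every split (10 population doublings). The protocol calls that dose one lethal to 20% of cells and the design text one lethal to 30%. Cells were transduced at a multiplicity of infection of 0.15, selected with 1 µg/mL puromycin, kept at 12% O2 and 3% CO2, given doxycycline for 7 days, with blasticidin to keep the Cas9 locus expressed, and split every 3 days. The labels do not say whether the day 0 cells had met doxycycline. The labels give replicate numbers but do not say that replicates were separate cultures, so p-values measure only the spread between these samples, which may be technical. Irradiation, 1 more day and fewer doublings cannot be told apart in the irradiated group.

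Libraries held 61185707 to 86587125 reads, and 863546 guide pairs had reads in at least 1 of them. Of these, 5.74% held a guide of the 14 genes, and such pairs took 6.38% to 6.62% of the reads of a library. Of the 49528 guide pairs with a guide of the 14 genes, 0.985% to 4.75% had no reads in 4 of the libraries, 49.7% had none in day 14 replicate 1 and 44.9% had none in irradiated replicate 2. The 2 latter are called incomplete below. Guides 1 and 2 of a gene stood at position 1 of the construct and guides 3 and 4 at position 2. In day 0 replicate 1, 264 of 927 guides at position 2 were lower than in day 0 replicate 2 by over 0.5 on the log2 scale, with a median of -0.72, against 0.12 for the other guides at position 2. Of the 26 tested guides of the 14 genes at that position, 4 were among these, all of them guides to Smc2 or Smc4.

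For each guide, reads were summed over all its partners and scaled to CPM, counts out of a common total of 1000000 at its position. Of the 56 guides, 54 passed a mean of at least 2000 reads. The others, Nsmce2_sg3 and Nsmce4a_sg3, had at most 3 reads in any library, so Nsmce2 and Nsmce4a were each read from 3 guides. In edgeR's quasi-likelihood test over the 1849 guides tested, 0 guides (0%) passed an adjusted p of 0.05 in any of the 3 comparisons. At an unadjusted p of 0.05, 79 guides (4.27%) passed for day 14 against day 0, 57 (3.08%) for irradiated day 15 against day 0 and 83 (4.49%) for irradiated day 15 against day 14. DESeq2, run on the same sums, called 24, 27 and 22 guides, and 2, 1 and 2 of these belonged to the 14 genes. With reads summed per gene, edgeR called 0 of 459 genes (0%) in each comparison, with 18, 18 and 12 genes (3.92%, 3.92% and 2.61%) under an unadjusted 0.05. DESeq2 calls of genes numbered 2, 2 and 1, and none was among the 14. The median half-width of the 95% intervals of the 14 genes was 0.13 on the log2 scale, and 0.18 for their guides. The log2 changes of the 61 non-targeting guides ran from -0.41 to 0.41 at day 14 against day 0. They ran from -0.295 to 0.45 for irradiated day 15 against day 0, and from -0.21 to 0.17 for irradiated day 15 against day 14. Changes of single guides below are to be read beside these ranges.

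PDS5B is a cohesin-associated protein also studied as a tumour suppressor, and its gene lies on chromosome 13 (32586452 to 32778019, GRCh38.p14). Guides to Pds5b were lower at day 14 than in the other groups, in 2 of the 4 guides and most of all in guide 1. Pds5b_sg1 stood at 1054 and 979 CPM in the day 0 libraries, 817 and 738 at day 14, and 1037 and 1058 after irradiation. Both day 14 libraries lay below all 4 others. The log2 change was -0.39 at day 14 against day 0 (SE 0.076, 95% interval -0.58 to -0.20, edgeR adjusted p = 0.562), the guide of smallest p among the 54. For irradiated day 15 against day 14 it was 0.43 (SE 0.076, interval 0.24 to 0.62, adjusted p = 0.286), or 1.35-fold, and for irradiated day 15 against day 0 it was 0.043 (interval -0.15 to 0.23). DESeq2 called both differences that involve day 14, at -0.39 (adjusted p = 0.00248) and 0.43 (adjusted p = 0.000197). Among the guides to Pds5a and Pds5b, the lowest change at day 14 against day 0 was -0.33 without day 0 replicate 1. It was -0.46 without day 14 replicate 1. The highest change for irradiated day 15 against day 14 was 0.43 and 0.51 in these 2 fits.

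Pds5b_sg4 followed the same order. It stood at 857 and 790 CPM at day 0, 715 and 645 at day 14, and 784 and 900 after irradiation, so that both day 14 libraries again lay below all 4 others. Its log2 change was -0.28 at day 14 against day 0 (interval -0.53 to -0.027, adjusted p = 0.646) and 0.31 for irradiated day 15 against day 14 (interval 0.059 to 0.56, adjusted p = 1.000). The other guides of the gene did not share this order. Pds5b_sg2 stood at 657 and 681 at day 0, 720 and 657 at day 14, and 714 and 824 after irradiation, and Pds5b_sg3 at 1800 and 1522, 1814 and 1528, and 1564 and 1778. The groups overlapped for both in the comparison of irradiated with day 14 cells, with log2 changes of 0.16 and 0.00035. Of the reads of Pds5b_sg2 in irradiated replicate 1, 7.78% came from its single construct with Rbm17_sg3, and without that construct its change was 0.13.

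PDS5A, the paralog, is encoded on chromosome 4 (39822863 to 39977911, GRCh38.p14), and its guides differed little between groups. Pds5a_sg1 stood at 542 and 567 CPM at day 0, 573 and 592 at day 14, and 572 and 584 after irradiation. Pds5a_sg2 stood at 593 and 619, 627 and 580, and 622 and 610. The position 2 guides were highest in day 0 replicate 1. Pds5a_sg3 stood at 1113 and 1026, 951 and 1042, and 1055 and 1001, and Pds5a_sg4 at 1006 and 911, 893 and 890, and 880 and 919. Across the 4 guides the log2 changes ran from -0.10 to 0.070 at day 14 against day 0, from -0.092 to 0.060 for irradiated day 15 against day 0, and from -0.010 to 0.046 for irradiated day 15 against day 14. For Pds5b the same ranges were -0.39 to 0.042, 0.0090 to 0.20 and 0.00035 to 0.43. Of the 8 guides to both genes, 7 were above 0 in the last comparison, as were 48.7% of all guides.

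Summed per gene, Pds5b stood at 2258 and 2035 CPM of gene-assigned reads at day 0, 2071 and 1829 at day 14, and 2111 and 2333 after irradiation. Both irradiated libraries lay above both day 14 libraries, and the day 0 libraries overlapped with each of the other groups. The log2 changes were -0.14 (interval -0.36 to 0.081), 0.050 (interval -0.17 to 0.27) and 0.19 (interval -0.032 to 0.41, adjusted p = 0.996 in edgeR). Pds5a stood at 1687 and 1599, 1552 and 1591, and 1612 and 1593, with log2 changes of -0.064, -0.037 and 0.028. For irradiated day 15 against day 14, Pds5b ranked 456 from the lowest of 459 genes and Pds5a 340. Read from position 1 alone, edgeR called Pds5b in that comparison at 0.31 (adjusted p = 0.0214), and read from position 2 alone it stood at 0.098. Without day 14 replicate 2 the change was 0.098 and without irradiated replicate 2 it was 0.11, while without day 14 replicate 1 it was 0.28.

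The difference between the paralogs was tested directly as the log2 level of Pds5a minus that of Pds5b in each library. It was -0.42 and -0.35 at day 0, -0.42 and -0.20 at day 14, and -0.39 and -0.55 after irradiation. The groups overlapped in all 3 comparisons. The group means differed by 0.075 (pooled SD 0.11) at day 14 against day 0, by -0.086 (pooled SD 0.089) for irradiated day 15 against day 0 and by -0.16 (pooled SD 0.13) for irradiated day 15 against day 14. The exact two-sided permutation test gave p = 0.667 in each of these 3 comparisons, and the smallest p that 2 libraries against 2 allow is 0.333, so no difference between the paralogs could have passed. Adjusted over the 3 comparisons the p-values stay at 0.667. From constructs with a non-targeting guide as partner alone, the 3 differences had the opposite sign, at -0.22, 0.061 and 0.29.

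Those non-targeting partners give the single knockouts on a small share of the reads. Per 1000 reads of constructs with 2 non-targeting guides, Pds5b stood at 179 and 154 at day 0, 203 and 136 at day 14, and 149 and 212 after irradiation. Pds5a stood at 116 and 126, 86.6 and 124, and 146 and 125. Pds5b was highest in the 2 incomplete libraries and its groups overlapped, while both irradiated libraries lay above both day 14 libraries for Pds5a. Of the 1650 constructs that joined a guide of the 14 genes to a non-targeting guide, 60.7% had no reads in day 14 replicate 1 and 54.7% had none in irradiated replicate 2.

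The breadth of the Pds5b difference over partners was read within libraries of like coverage. In irradiated replicate 1 against day 14 replicate 2, both of which were near complete, 336 of the 458 partner genes of Pds5b (73.4%) had a log2 ratio of reads above the median of all gene pairs, and the median over the partners was 0.20 above it. That placed Pds5b at rank 2 of 459 genes from the highest, in a range over genes of -0.15 to 0.25. Pds5a had 235 of 458 partners higher and a median of 0.012, at rank 164. In the incomplete pair of libraries, irradiated replicate 2 against day 14 replicate 1, Pds5b had 252 of 458 partners higher and a median of 0.13 (rank 31), and Pds5a 245 partners and a median of 0.11 (rank 43). Partners share the same guides to Pds5b and are not replicates, and these shares are a description. By guide, in the complete libraries, 608 of 933 constructs with Pds5b_sg1 were higher in CPM after irradiation, against 496 of 930 with Pds5b_sg4, 463 of 933 with Pds5b_sg3 and 423 of 927 with Pds5b_sg2. Among the guides to Pds5a the count ran from 365 of 927 to 458 of 930. Unlike the partner counts, these construct ratios were not set against a median over all constructs. Only the order of the guides can be read from them, not a rise or fall.

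In the SMC5/6 complex, Smc5 and Smc6 form the arms and ATPase heads. Smc5, on chromosome 9 (70258978 to 70354873, GRCh38.p14), stood at 3111 and 3120 CPM of gene-assigned reads at day 0, 3037 and 3106 at day 14, and 3059 and 3056 after irradiation. Smc6, on chromosome 2 (17663812 to 17753810), stood at 2954 and 3005, 2863 and 2864, and 2870 and 2906. For both genes all 4 later libraries lay below both day 0 libraries, by log2 changes of -0.021 and -0.027 for Smc5 and of -0.057 and -0.045 for Smc6. The edgeR adjusted p of these 4 changes was 0.549 or above. Of the genes tested, 20.3% were lower in this way at day 14 and 18.1% after irradiation.

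Among the guides to Smc6, guide 3 lay furthest from day 0. Smc6_sg3 stood at 1814 and 1927 CPM at day 0, 1628 and 1662 at day 14, and 1551 and 1610 after irradiation. All 4 later libraries lay below both day 0 libraries, with log2 changes of -0.19 (interval -0.32 to -0.052, adjusted p = 0.646) and -0.24 (interval -0.38 to -0.11, adjusted p = 0.419). The latter was called by DESeq2 (adjusted p = 0.00360). The other guides to Smc6 ran from -0.062 to 0.15 at day 14 against day 0 and from 0.00078 to 0.057 for irradiated day 15 against day 0.

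NSMCE4A is the kleisin that bridges the SMC heads, with NSMCE3 bound to it. Nsmce4a stood at 2784 and 2781 CPM of gene-assigned reads at day 0, 3022 and 2944 at day 14, and 2755 and 2732 after irradiation. The day 14 libraries lay above all 4 others, the order opposite to that of Pds5b_sg1. The log2 changes were 0.10 (interval 0.011 to 0.19, adjusted p = 0.549) and, for irradiated day 15 against day 14, -0.12 (interval -0.21 to -0.031, adjusted p = 0.996), which placed it at rank 5 from the lowest of 459 genes. Its guide 1 had the same order. Nsmce4a_sg1 stood at 3649 and 3617 CPM at day 0, 3994 and 3949 at day 14, and 3518 and 3543 after irradiation. Its log2 changes were 0.13 at day 14 against day 0 (interval 0.035 to 0.22, adjusted p = 0.646) and -0.17 for irradiated day 15 against day 14 (interval -0.26 to -0.076, adjusted p = 0.660), and DESeq2 called both (adjusted p = 0.0258 and 0.000137). In the complete libraries, 172 of 458 partner genes of Nsmce4a were higher after irradiation, with a median of -0.11 (rank 456 from the highest), and in the incomplete ones 202 of 458, with a median of -0.16 (rank 451).

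As for Nsmce4a, no difference of the other Nse subunits passed the edgeR test with all 6 libraries. Nsmce1, a RING-domain subunit, stood at 2237 and 2129 at day 0, 2133 and 2231 at day 14, and 2123 and 1928 after irradiation, where both libraries lay below the other 4. Its log2 change was -0.11 against either group (adjusted p = 0.623 and 0.996). Without irradiated replicate 2 the change against day 14 was -0.039. Nsmce1_sg1, which stood at 1785 and 1802 CPM at day 0, 1979 and 2034 at day 14, and 1816 and 1624 after irradiation, had log2 changes of 0.16 at day 14 (interval -0.0021 to 0.33) and -0.22 for irradiated day 15 against day 14 (interval -0.39 to -0.058, adjusted p = 1.000). Both day 14 libraries lay above the 4 others for that guide.

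Nsmce2 encodes the SUMO ligase of the complex, also called MMS21. It stood at 2371 and 2362 CPM of gene-assigned reads at day 0, 2172 and 2291 at day 14, and 2407 and 2387 after irradiation, with the day 14 libraries below and the irradiated libraries above all others. Its log2 changes were -0.085 at day 14, 0.018 for irradiated day 15 against day 0 and 0.10 for irradiated day 15 against day 14 (interval -0.0030 to 0.21, adjusted p = 0.996). Nsmce3, a MAGE-domain subunit, stood at 2765 and 2460, 2524 and 2502, and 2524 and 2427, with overlapping groups in all 3 comparisons. Day 0 replicate 1 was its highest library. Its log2 changes against day 0 were -0.056 and -0.078. Without day 0 replicate 2 they were -0.14 and -0.16, and without day 0 replicate 1 they were 0.033 and 0.0087.

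Over the complex, 15 of 22 tested guides were lower at day 14 than at day 0 (50.3% of all guides), with a median of -0.050 against -0.0014 over all guides. After irradiation 13 of 22 were lower than at day 0 (51% of all guides), with a median of -0.052, and 15 of 22 were lower than at day 14 (51.3% of all guides), with a median of -0.019. The first count was 11 of 22 without day 0 replicate 1, with a median of -0.0088. The last was 11 of 22 without irradiated replicate 2, with a median of 0.00030, and 9 of 22 with both incomplete libraries left out, with a median of 0.0062. The mean log2 change over its 6 genes was -0.020 at day 14 against day 0, -0.043 for irradiated day 15 against day 0 and -0.023 for irradiated day 15 against day 14. Without day 0 replicate 1 the first 2 were -0.0013 and -0.025, and without irradiated replicate 2 the last 2 were -0.026 and -0.0066. Without day 14 replicate 1 the first was -0.0092, and without day 14 replicate 2 it was -0.030 and the last -0.013. At position 1 alone the first 2 comparisons gave 0.037 and 0.020, and at position 2 alone -0.094 and -0.12.

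The cohesin ring consists of SMC1A, SMC3 and the kleisin RAD21. Smc1a, on chromosome X (53374149 to 53422728, GRCh38.p14), had the lowest log2 changes of the 14 genes against day 0. It stood at 1991 and 1811 CPM of gene-assigned reads at day 0, 1642 and 1741 at day 14, and 1709 and 1615 after irradiation, and all 4 later libraries lay below both day 0 libraries. The log2 changes were -0.17 (interval -0.34 to -0.0019, adjusted p = 0.549) and -0.19 (interval -0.36 to -0.027, adjusted p = 0.623), or 0.890-fold and 0.874-fold, and it ranked 7 and 3 from the lowest of 459 genes. Without day 0 replicate 1 they were -0.097 and -0.12, and without day 0 replicate 2 they were -0.24 and -0.26. All 4 guides to Smc1a lay below 0 in both comparisons.

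Among the guides to Smc1a, Smc1a_sg2 stood at 437 and 431 CPM at day 0, 309 and 373 at day 14, and 382 and 396 after irradiation. Its log2 change was -0.35 at day 14 against day 0 (interval -0.62 to -0.075, adjusted p = 0.646) and -0.16 for irradiated day 15 against day 0. Without day 14 replicate 1 the day 14 change was -0.22. Smc1a_sg3, at position 2, stood at 1600 and 1405 at day 0, 1310 and 1326 at day 14, and 1278 and 1258 after irradiation, with changes of -0.19 and -0.25 (interval -0.43 to -0.064, adjusted p = 0.789). For both guides all 4 later libraries lay below both day 0 libraries. For irradiated day 15 against day 0, Smc1a_sg3 stood at -0.33 without day 0 replicate 2 and at -0.15 without day 0 replicate 1.

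Smc3 stood at 1882 and 1764 CPM of gene-assigned reads at day 0, 1731 and 1709 at day 14, and 1742 and 1732 after irradiation. Its later libraries all lay below day 0, with log2 changes of -0.084 and -0.070, and its guide Smc3_sg4 stood at 1280 and 1114, 1048 and 1072, and 1095 and 953, with a change of -0.23 for irradiated day 15 against day 0 (interval -0.47 to 0.023, adjusted p = 0.789). Without day 0 replicate 2 that change of Smc3_sg4 was -0.32, with day 0 replicate 1 alone for its group. For this guide, day 0 replicate 1 stood 0.20 above day 0 replicate 2 on the log2 scale. Irradiated replicate 1, at 1095, lay close to the 1114 of day 0 replicate 2. Rad21 stood at 1613 and 1604, 1631 and 1584, and 1566 and 1547, with changes of -0.00037 and -0.047. Its guide Rad21_sg3 stood at 615 and 582, 561 and 545, and 521 and 545, with a change of -0.17 for irradiated day 15 against day 0 (interval -0.34 to 0.0098, adjusted p = 0.789). Both Rad21 and its guide had their lowest library after irradiation.

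Over the ring, 8 of 12 guides were lower at day 14 than at day 0 (50.3% of all guides) and 10 of 12 after irradiation (51%), with medians of -0.087 and -0.15. For irradiated day 15 against day 14, 7 of 12 were lower (51.3% of all guides), with a median of -0.051. The mean log2 change over the 3 genes was -0.084, -0.10 and, for irradiated day 15 against day 14, -0.019. Its level per library was 10.83 and 10.75 at day 0, 10.70 and 10.71 at day 14, and 10.71 and 10.67 after irradiation, on the log2 scale of CPM. Day 0 replicate 1 thus held the highest value and irradiated replicate 2 the lowest. Without day 0 replicate 1 the changes against day 0 were -0.044 and -0.063. At position 1 alone the change for irradiated day 15 against day 0 was -0.039 and at position 2 alone -0.18.

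Condensin guides lay on the other side of 0, in 7 of 8 at day 14 (49.7% of all guides) and 8 of 8 after irradiation (49% of all guides), against day 0. Smc2 stood at 2234 and 2679 CPM of gene-assigned reads at day 0, 2728 and 2680 at day 14, and 2686 and 2929 after irradiation. Smc4 stood at 3893 and 4539, 4759 and 4555, and 4555 and 4771. Day 0 replicate 1 was the lowest library for both genes, and day 0 replicate 2 lay next to the later libraries. The log2 changes against day 0 were 0.14 and 0.19 for Smc2 and 0.14 and 0.15 for Smc4 (adjusted p = 0.549 and 0.623 for each gene). Without day 0 replicate 1 they were 0.015 and 0.067 for Smc2, and 0.039 and 0.038 for Smc4. Without day 0 replicate 2 they were 0.28 and 0.33 for Smc2, and 0.26 in both comparisons for Smc4.

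The position 2 guides of condensin, singled out after their values were seen, carried this difference between the day 0 libraries. Smc2_sg3 stood at 397 and 652 CPM at day 0, 704 and 648 at day 14, and 655 and 687 after irradiation. Smc4_sg3 stood at 1064 and 1753, 2007 and 1758, and 1734 and 1965. For each, day 0 replicate 1 alone was low. The position 1 guides to Smc4 stayed between 2609 and 2831 (guide 1) and between 3408 and 3806 (guide 2) in all 6 libraries. In irradiated replicate 2, 27.0% of the reads of Smc2_sg2 came from its construct with Pif1_sg3, which had 224 to 227 reads at day 0, 11571 and 155 at day 14, and 117 and 42278 after irradiation. Those 42278 reads are among the 490707 reads of Smc2 in irradiated replicate 2, the highest library of that gene in CPM.

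Smchd1, a non-canonical SMC gene with a role in silencing of the inactive X chromosome, stood at 1837 and 1843 CPM of gene-assigned reads at day 0, 1793 and 1766 at day 14, and 1827 and 1926 after irradiation. The day 14 libraries were the lowest. Its log2 changes were -0.048, 0.029 and, for irradiated day 15 against day 14, 0.077 (adjusted p = 0.996).

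Over the 54 tested guides, 20 had both day 14 libraries below both day 0 libraries and 12 had both above, where the shares over all guides tested were 21.5% and 19.5%. After irradiation, 15 lay below and 13 above day 0 in this way (18.3% and 18.2% over all guides), and 11 lay below and 9 above day 14 (15.8% and 15.1%). In the first of these counts, 12 of 26 guides at position 2 were below, beside 176 of 927 among all guides there, and 8 of 28 at position 1, beside 221 of 922. The changes at position 2 depended on day 0 replicate 1. The median of the 26 guides there was -0.084 at day 14 against day 0, and -0.029 without that library. For irradiated day 15 against day 0 it was -0.087, and -0.026 without that library. The medians of the 54 guides were -0.046, 0.0021 and -0.0048, and those of all guides -0.0014, -0.0023 and -0.0022. Comparisons that share the day 0 or the day 14 libraries are not independent. Among the genes, 7 of 14 lay below both day 0 libraries at day 14 and 3 above, 7 and 3 did so after irradiation, and 3 lay below and 6 above day 14 in the irradiated libraries, where the shares over all genes were 20.3% and 20.5%, 18.1% and 20.7%, and 17.6% and 16.6%. By the sign of the log2 change alone, 11 of 14 genes were below 0 and 3 above at day 14 against day 0 (48.4% and 51.6% of all genes). After irradiation 9 were below and 5 above day 0 (52.1% and 47.9%), and 6 below and 8 above day 14 (48.4% and 51.6%).

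The other genes of these pathways were taken from 3 lists, of each of which 4 genes were measured. In edgeR 0 of the 4 were called in either direction in each list and comparison. The other cohesin regulators measured were the loader Nipbl, the acetyltransferase Esco2, Cdca5, which encodes sororin, and Pttg1, which encodes securin. They were below 0 in 4 of 4 genes in both comparisons with day 0 (48.4% and 52.1% of all genes). Only for Cdca5 and Esco2 did the libraries lie below both day 0 libraries in both comparisons. Pttg1 overlapped with day 0 after irradiation, and Nipbl did so in both comparisons. For irradiated day 15 against day 14, 2 of the 4 were below 0. They had a median log2 change of -0.080 at day 14 against day 0 and -0.070 for irradiated day 15 against day 0, beside 0.0066 and -0.0038 over all genes. Esco2, which acetylates SMC3, was at -0.11 at day 14. The fork-coupled cohesion genes (Timeless, Clspn, Ddx11 and Wdhd1) had medians of 0.023 and -0.0041, with 1 and 2 of 4 below 0. The genes of SMC5/6 recruitment and SUMO signalling (Slf1, Slf2, Rad18 and Rnf111) had medians of -0.024 and 0.0085, with 3 and 2 of 4 below 0. Slf1 and Slf2, which bring SMC5/6 to damaged DNA, stayed between -0.014 and 0.034 in the 3 comparisons. Rnf111, a SUMO-targeted ubiquitin ligase, was the lowest of 459 genes at day 14 against day 0, at -0.28 (interval -0.39 to -0.18, adjusted p = 0.315), and the highest for irradiated day 15 against day 14, at 0.28 (interval 0.17 to 0.38, adjusted p = 0.337), and 1.21-fold in the latter.

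Double knockouts were read as the interaction, the log2 change of a gene pair beyond the sum of the effects of its genes in each library. Of 105111 gene pairs, 6321 held at least 1 of the 14 genes and 91 joined 2 of them. In edgeR 0 pairs (0%) passed an adjusted p of 0.05 in any comparison. At an unadjusted p of 0.05, 452, 372 and 876 pairs passed, and 0 of these joined 2 of the 14 genes. The median half-width of the unadjusted 95% intervals was 1.34 on the log2 scale. Over all pairs, interactions ran from -7.44 to 5.81 for irradiated day 15 against day 14, and 0 were called. The lack of calls therefore does not exclude interactions larger than that half-width.

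The double knockout of both paralogs, Pds5a with Pds5b, was read from 8 constructs. It had 818 and 547 reads at day 0, 931 and 236 at day 14, and 283 and 1577 after irradiation. Both incomplete libraries were the highest, and the complete libraries of the same groups were the lowest. The interaction was 0.78 (interval -1.38 to 2.94) at day 14 against day 0, 0.68 (interval -1.47 to 2.84) for irradiated day 15 against day 0 and -0.098 (interval -2.24 to 2.05) for irradiated day 15 against day 14. With both incomplete libraries left out it had the opposite sign against day 0, at -0.68 (adjusted p = 0.774) and -0.82 (adjusted p = 0.193). That fit sets 1 library of each later group against the 2 day 0 libraries, which alone give its spread. Constructs without reads numbered 0 in both day 0 libraries, 3 and 1 at day 14, and 2 and 3 after irradiation.

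Smc5 with Smc6, which lose both arms of one complex, had 1459 and 1663 reads at day 0, 1111 and 1153 at day 14, and 1307 and 1272 after irradiation. Its interactions were 0.18 (interval -0.52 to 0.87), 0.027 and -0.15. Smc1a with Smc3 had 584 and 456, 424 and 282, and 299 and 260 reads, and interactions of 0.49 (interval -0.92 to 1.90), -0.35 and -0.84 (interval -2.26 to 0.58). Over the additive expectation, Smc1a with Smc3 was lowest in both irradiated libraries, and Smc5 with Smc6 overlapped between irradiated and day 14 cells.

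Among the 91 pairs within the set, those of smallest p at day 14 were Smc1a with Smchd1 (1.17, interval -0.14 to 2.48), Nsmce4a with Smc4 (0.72) and Nsmce2 with Smc4 (0.68), with an adjusted p of 0.970 each. In irradiated cells against day 0 they were Nsmce2 with Smc5 (-0.68), Nsmce4a with Smc3 (-1.01) and Smc5 with Smchd1 (0.64). In irradiated cells against day 14 they were Pds5b with Rad21 (-1.18, interval -2.60 to 0.24), Smc6 with Smchd1 (1.19) and Nsmce2 with Smc6 (-0.75). The pair Pds5b with Rad21 had 625 and 484 reads at day 0, 465 and 386 at day 14, and 346 and 169 after irradiation, and Smc6 with Smchd1 had 887 and 760, 169 and 432, and 457 and 1482. For Smc6 with Smchd1 the incomplete libraries held the lowest and the highest value, and without them the interaction was -0.19. Other pairs also differed between replicates over the additive expectation. Irradiated replicates 1 and 2 stood at -0.32 and -1.55 for Pds5b with Rad21, and at -0.075 and -1.26 for Nsmce2 with Smc6. For Nsmce4a with Smc3 they stood at -0.44 and -1.52. Day 14 replicates 1 and 2 stood at 1.54 and 0.32 for Smc1a with Smchd1.

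Pairs with another gene were named for their smallest p, and their intervals are not adjusted for that choice. At day 14 they were Nsmce2 with Taok3 (1.22, interval 0.20 to 2.24) and Smc3 with Cdc14b (1.72, interval 0.27 to 3.18). In irradiated cells against day 0 they were Pds5a with Pml (1.08, interval 0.13 to 2.02) and Pds5b with Mus81 (1.25, interval 0.15 to 2.35), the latter a structure-specific nuclease gene. Pds5b with Mus81 had 1159 and 1169 reads at day 0, 940 and 818 at day 14, and 1228 and 3575 after irradiation. Irradiated replicate 2 alone was thus high. Smc3 with Cdc14b had 605 and 785 reads at day 0, 1952 and 650 at day 14, and 844 and 956 after irradiation. For that pair the incomplete day 14 replicate 1 alone was high. For each pair named in irradiated cells against day 14, the incomplete libraries held the highest and the lowest value over the additive expectation. The complete libraries, irradiated replicate 1 and day 14 replicate 2, stood at -0.96 and -0.039 for Pds5a with Kdm1a. They stood at 0.79 and -0.056 for Nsmce2 with Sirt1, and at -0.81 and 0.13 for Smc2 with Fbh1. The interactions were -2.07 for Pds5a with Kdm1a (interval -3.63 to -0.52), 1.51 for Nsmce2 with Sirt1 (interval 0.36 to 2.65) and -1.57 for Smc2 with Fbh1 (interval -2.77 to -0.38). None of these passed the adjusted threshold, and none did so with both incomplete libraries left out.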

How the data were processed

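Per the file headers, each deposited table lists raw read counts for every construct, with no scaling. HISAT2 2.1.0 and hg38 appear in the submitters' processing notes without a role, and the rule that assigned reads to guides is not given there. Guide pairs that a table does not list were set to 0 reads. The tables hold 2 columns of no sample in the series, which were not used. Guide sequences and target sites were not used. Symbols, written in mouse style, matched 14 of 14 human genes in RefSeq (GRCh38.p14).

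Counts were summed per guide over partners and per gene (each construct once), with a minimum mean of 2000, and scaled by TMM (trimmed mean of M-values), guides within their position. Tests were edgeR 4.0.16 quasi-likelihood fits to all 6 libraries in R 4.3.3, two-sided, called where the Benjamini-Hochberg adjusted p was under 0.05, and SE and 95% intervals come from these fits. Interactions used the additive effects of both genes (medians over partners of log2 CPM, prior count 2, 25 iterations) as offsets. DESeq2 1.42.0, limma 3.58.1, other scalings, filters and libraries were alternatives. PCR reads without molecular identifiers are not independent molecules.

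The guides, gene lists and named pairs were chosen with earlier results of these data known. By rule, the text names each of the 14 genes, all guides to Pds5a and Pds5b, the 4 guides of smallest p per comparison, 3 pairs fixed by name and, per comparison, the 3 pairs of smallest p within the set and the 3 with another gene. One pair chosen by this rule is not reported here. Alternatives added after seeing the data were positions fitted separately, 4 libraries only and a crossed pairing.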

Additional observations from a re-analysis of the deposited data

How the results depend on the processing

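The fits of guides, genes and gene pairs called nothing in any comparison, and every exception over the alternatives run follows. In the order day 14 against day 0, irradiated day 15 against day 0 and irradiated day 15 against day 14, DESeq2 called 24, 27 and 22 guides and 2, 2 and 1 genes. Scaling by non-targeting totals called 2 guides in each of the last 2 comparisons, and fits without a filter called 1 guide in the last. Position 1 alone called 2, 2 and 10 genes, of which Pds5b, in the last, was the 1 described here. Without both incomplete libraries, 168, 1274 and 216 pairs were called, of which 10, 71 and 11 held at least 1 of the 14 genes. Among all pairs tested, 6321 of 105111 held at least 1 of the 14 genes. That fit has 1 library in each later group, assumed to vary like the 2 day 0 libraries, which alone give its spread. Its calls thus compare single libraries. The limma-trend fit called 1 pair in each of the last 2 comparisons. Of the alternatives chosen after seeing the data, positions fitted separately called 2, 1 and 10 guides, and the 4 libraries of irradiated day 15 against day 14 alone called 10, with Pds5b_sg1 among them in that comparison under both.

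Leaving out 1 library at a time gave 0 to 313, 0 to 311 and 0 to 11 guides, 0 to 168, 0 to 163 and 0 to 1 genes, and, for pairs in the last 2 comparisons, 0 to 1 each. The 313, 311, 168 and 163 calls came without day 0 replicate 2, so that day 0 replicate 1, with its shift at position 2, stood alone for its group.

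The replicate numbers did not pair the samples: the replicate differences of day 14 and irradiated libraries correlated at r = -0.579 over guides and -0.667 over genes, those of day 0 and day 14 at -0.045 and -0.109, and those of day 0 and irradiated libraries at 0.107 and 0.148. Whether libraries of unlike number share a culture is not given in the labels. Fits with the replicate block called 0, 1 and 1 guides, 0, 0 and 0 genes, and 0, 1 and 1 pairs. A crossed pairing, chosen after seeing the data, called 36 guides and 28 genes for irradiated day 15 against day 14, 4 of each among those described here.

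Read from non-targeting partners alone, Pds5a minus Pds5b was -0.22, 0.061 and 0.29, the mean SMC5/6 change 0.017 and -0.012 against day 0, and the mean cohesin change 0.026 at day 14 against day 0 and -0.089 for irradiated day 15 against day 14. At position 1, Pds5a minus Pds5b was 0.23 at day 14 and -0.30 for irradiated day 15 against day 14, the SMC5/6 change was 0.037 and 0.020 against day 0, and the cohesin change -0.039 for irradiated day 15 against day 0 and 0.0057 against day 14. At position 2, the SMC5/6 change was -0.094 and -0.12, and the cohesin change -0.18 and -0.057. The cause of these differences was not tested. Among single guides, genes and pairs, 31 calls appeared in 1381 alternative values, 106 others changed sign without a call, and no called value changed sign.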
